A study of Homo sapiens with 20 samples.

Results

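The insulin-like growth factor (IGF) axis was examined in rhabdomyosarcoma cells in which KDM4 histone demethylases were knocked down or inhibited. It was taken as 10 genes chosen by symbol: the ligands IGF1 and IGF2, the receptors IGF1R and INSR, the adaptors IRS1 and IRS2, and the binding proteins IGFBP2, IGFBP3, IGFBP4 and IGFBP5. All 10 were measured, among 17687 genes on 20 Clariom S arrays of total RNA, and each had 1 probe set. Values are log2 signals, and a difference of 1 on this scale is a 2-fold difference.

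Rh30 and Rh41 are cell lines from alveolar rhabdomyosarcoma, a childhood tumour of muscle-like cells driven by a PAX3-FOXO1 fusion. Rh30 cells were transduced with a control short hairpin RNA or a hairpin against KDM4B for 72 h (2 arrays each), or given a control siRNA or an siRNA against KDM4C for 72 h (2 each). Rh30 and Rh41 cells received QC6352, an inhibitor of KDM4 enzymes, at 200 nM for 48 h, or its vehicle DMSO (3 arrays per line and treatment). KDM4 enzymes are demethylases that act on lysines of histone tails. The labels name neither the hairpin and siRNA sequences nor whether a transduced line was clonal. All groups of a line share its fusion and culture medium, so each line is 1 genetic background.

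IGF1 and IGF2 are secreted peptides that bind IGF1R, a receptor tyrosine kinase, and IGF2 also binds the insulin receptor encoded by INSR. The activated receptors phosphorylate IRS1 and IRS2, which recruit PI3K and so activate AKT and mTOR, while the IGF binding proteins hold the ligands outside the cell and can block or prolong their action. IGF2 is an imprinted gene, normally read from the paternal copy, that is abundant in rhabdomyosarcoma and in developing muscle.

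The labels of 10 Rh30 arrays contradict themselves, namely the 4 titled siRNA, the 3 titled DMSO and the 3 titled QC6352. Their titles, source names and treatments name one group, and the sample name at the head of the description names another. Groups here follow the titles, and the Rh30 results that rest on these arrays are given by sample name as well, gene by gene for the 10 members and by counts for the pathway lists. The hairpin arrays and the Rh41 arrays carry no conflict. One array titled shRNA against KDM4C has a source name that reads siRNA and was placed with the siRNA arrays. The hairpin's target KDM4B was at 6.01 and 6.15 log2 in the hairpin arrays and at 6.74 and 7.30 in their controls. KDM4C was at 6.25 and 6.32 in the arrays titled siRNA against it and at 6.48 and 6.54 in their controls. It was also lower with the KDM4B hairpin, at 6.37 and 6.21 against 6.49 and 6.62, and ran from 6.12 to 6.90 in Rh30 with DMSO. KDM4B ran from 6.63 to 7.04 in Rh30 with DMSO and from 6.21 to 6.94 with QC6352. These values of KDM4B and KDM4C all lay under the brightest background probe set of their array. They do not by themselves show a knockdown of KDM4B or of KDM4C.

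Array medians were 6.72 to 6.75 log2 in the 4 arrays titled siRNA, 6.95 to 6.99 in the other Rh30 arrays and 7.22 to 7.25 in Rh41. Background probe sets had a median of 3.64 to 4.01 per array, and no value of the 10 genes lay at or under it. The highest background probe set is a stricter mark: all 20 values of IGF1, INSR, IGFBP4 and IGFBP5 lay at or under it, as did 18 of IRS2, 14 of IRS1, 14 of IGFBP3 and 13 of IGFBP2, and none of IGF2 or IGF1R. Of 11 myogenic markers, 11 had a mean over 2-fold above the background median in Rh30 and 10 in Rh41. The same mark was passed by 3 and 4 of 5 blood markers, 3 and 3 of 5 endothelial, 2 and 3 of 5 epithelial and 4 and 5 of 6 fibroblast markers, so passing it does not show that a cell type was present. The part of other cell types in the results was not tested. The arrays held bulk RNA of cultured cell lines, not of tissue. Fewer cells of a line with a transcript and less of it per cell cannot be told apart in them.

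The counts of changed genes differed between the 4 treatments. They are descriptions, as the 10 genes were chosen with earlier results of these data known. The KDM4B hairpin raised 5 of the 10 genes, IGF1R, IRS2, IGFBP2, IGFBP4 and IGFBP5, and lowered none (limma, adjusted p under 0.05), where 11.6% of all genes were called (5.26% higher and 6.31% lower). With the KDM4C siRNA no member passed in limma, 2 had an unadjusted p under 0.05, and 0.458% of all genes were called. QC6352 raised IGF1R and IRS2 in Rh30, 2 of 10 genes against 36.3% of all genes (19.9% higher and 16.5% lower), a share under that of the genes at large. In Rh41 it raised IRS1 and IGFBP3 and lowered IGF1R, 3 of 10 genes against 19.7% of all genes (10.9% higher and 8.8% lower). The response to QC6352 differed between the lines for 4 of 10 genes, IGF1R, IRS1, IRS2 and IGFBP3, against 20% of all genes (10.5% higher and 9.45% lower in Rh41).

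**Figure D1:**
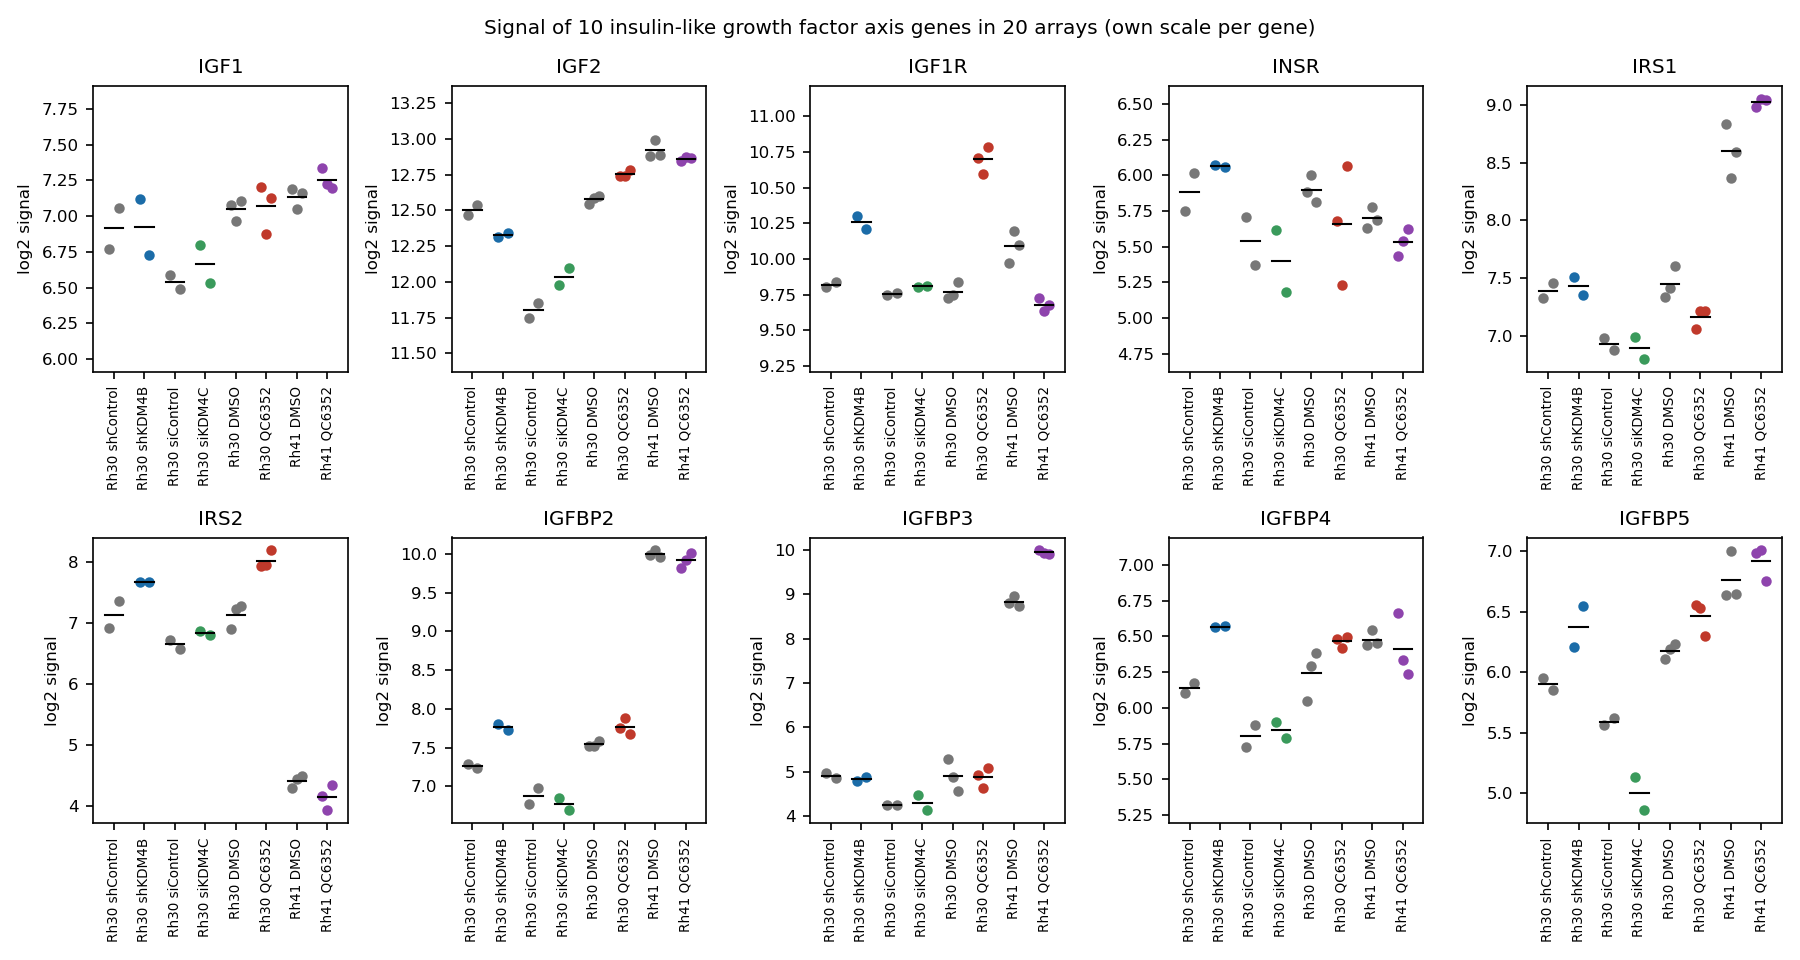
Log2 signal of the 10 genes in each of the 20 arrays, 1 panel per gene with its own axis, with groups along the horizontal axis. Points are arrays and bars are group means. IRS2 lies between 3.93 and 4.49 in Rh41 and between 6.56 and 8.18 in Rh30, and IGFBP3 lies between 8.73 and 9.98 in Rh41 and between 4.14 and 5.30 in Rh30.

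IGF2 was near the top of the measured range in every array, at 11.75 to 12.99 log2, where the brightest probe set of any array reached 14.22. It was at 12.54, 12.59 and 12.60 in Rh30 with DMSO and at 12.74, 12.74 and 12.78 with QC6352. These 2 groups did not overlap, but the difference of 0.18 ± 0.08 (SE; adjusted p = 0.0836, limma) did not pass. With eBayes trend and robust it did (adjusted p = 0.00353), as did the hairpin and siRNA differences of IGF2 (0.0475 and 0.0273). The hairpin arrays were at 12.31 and 12.34 and their controls at 12.47 and 12.54, a difference of -0.17 (95% interval -0.37 to 0.03, adjusted p = 0.298).

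The lowest IGF2 values were those of the arrays titled siRNA, at 11.75 and 11.85 with the control siRNA and 11.98 and 12.10 with the KDM4C siRNA. The KDM4C arrays lay above both controls, by 0.24 (95% interval 0.04 to 0.44, adjusted p = 0.263), and by sample name the difference was 0.09 ± 0.15. Rh41 arrays were the highest, at 12.88, 12.99 and 12.89 with DMSO and 12.85, 12.88 and 12.87 with QC6352. The difference with QC6352 was -0.06 (95% interval -0.22 to 0.11). From the lowest to the highest group mean the order was control siRNA, KDM4C siRNA, KDM4B hairpin, control hairpin, Rh30 DMSO, Rh30 QC6352, Rh41 QC6352 and Rh41 DMSO. No neighbours in this order had overlapping arrays, which is a weak mark in groups of so few arrays. The share of all genes with groups separated in this way was not counted. The smallest gap between group means was 0.06, between the Rh41 groups. Their nearest arrays were at 12.877 with QC6352 and 12.880 with DMSO, and that difference was not called (adjusted p = 0.709, limma).

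By sample name the QC6352 difference of IGF2 in Rh30 was 0.55 ± 0.12 (adjusted p = 0.0522), larger than by title and also not called. In that grouping the arrays named DMSO are 3 of the 4 with the lowest array medians. The Pearson correlation of IGF2 with the array median over the 20 arrays, both taken as deviations from the mean of their line, was 0.90. The 4 arrays titled siRNA had both the lowest medians and the lowest IGF2 values, and the correlation was not taken without them. The other Rh30 arrays had medians of 6.95 to 6.99 and IGF2 values of 12.31 to 12.78. The part of the array median in the siRNA values was not tested.

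IGF1, the ligand that carries growth hormone's action, had a narrow range of 6.49 to 7.34. It passed in none of the treatments, with differences of 0.01 for the hairpin, 0.13 for the siRNA, 0.02 for QC6352 in Rh30 and 0.12 in Rh41. The siRNA and Rh30 QC6352 differences by sample name were -0.15 and 0.23, neither of them called. Every IGF1 value lay at or under the highest background probe set of its array, which limits what its values can show, and the same holds for INSR, IGFBP4 and IGFBP5.

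IGF1R, the receptor that both ligands activate, changed in 3 treatments and not in one direction. With the control hairpin it was at 9.81 and 9.84 log2, and with the KDM4B hairpin at 10.30 and 10.21. Both hairpin arrays lay above both controls, a rise of 0.43 ± 0.10 (SE, n = 2 and 2 arrays, adjusted p = 0.00977, limma). In Rh30 it was at 9.73, 9.75 and 9.84 with DMSO and at 10.71, 10.60 and 10.79 with QC6352. The lowest treated array was above the highest control, a rise of 0.93 ± 0.09 or 1.9-fold (n = 3 and 3, adjusted p = 6.46e-08).

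Rh41 went the other way. IGF1R was at 9.97, 10.20 and 10.10 with DMSO and at 9.73, 9.64 and 9.68 with QC6352. All treated arrays were below all controls, and IGF1R fell by 0.41 ± 0.09 on the log2 scale (adjusted p = 0.00201). The difference of the responses, Rh41 minus Rh30, was -1.33 ± 0.12 (adjusted p = 3.31e-07). With the KDM4C siRNA IGF1R was at 9.81 and 9.81 against 9.75 and 9.76, a difference of 0.05 (95% interval -0.17 to 0.27). Among the group means Rh41 with QC6352 was the lowest, followed by the Rh30 groups of control siRNA, DMSO, KDM4C siRNA and control hairpin, whose arrays overlapped between neighbours. Rh41 with DMSO, the KDM4B hairpin and Rh30 with QC6352 came next in rising order, without overlap.

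The Rh30 rise of IGF1R depended on which label was followed. By sample name its QC6352 difference in Rh30 was -0.01 ± 0.16, and that of the KDM4C siRNA was 0.42 ± 0.19 (adjusted p = 0.381). The 3 arrays with the highest IGF1R are titled QC6352, and their sample names place 1 with the control siRNA and 2 with the KDM4C siRNA. The hairpin and Rh41 arrays stay in their groups under both labels.

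INSR, the insulin receptor, passed in no treatment and ranged from 5.18 to 6.07. In Rh30 with QC6352 its arrays were spread widely, at 5.68, 5.23 and 6.06, across the DMSO values of 5.88, 6.002 and 5.81. The difference there was -0.24 (95% interval -0.58 to 0.10), and in Rh41 it was -0.17 (-0.51 to 0.17). Grouped by sample name, the Rh30 difference was 0.12 ± 0.20, of the other sign, and that of the siRNA was -0.10 ± 0.25, against -0.14 by title.

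IRS2, the adaptor that couples the receptors to PI3K and is itself a target of FOXO factors, rose together with IGF1R in Rh30. It was at 6.91 and 7.35 with the control hairpin and at 7.66 and 7.67 with the KDM4B hairpin, both above the controls. The rise was 0.54 ± 0.16 (n = 2 and 2, adjusted p = 0.0391). Without control replicate 1, the lower of the controls, it was 0.32 and not called (adjusted p = 0.359). With DMSO it was at 6.89, 7.22 and 7.27 and with QC6352 at 7.93, 7.94 and 8.18. No treated array reached down to the controls, and the rise was 0.89 ± 0.13 or 1.85-fold (n = 3 and 3, adjusted p = 2.52e-05).

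In Rh41 IRS2 was close to background under both treatments. It was at 4.28, 4.43 and 4.49 with DMSO and at 4.17, 3.93 and 4.35 with QC6352, and the groups overlapped. The difference of -0.26 (95% interval -0.53 to 0.02, adjusted p = 0.216) was not called. The responses of the lines differed by -1.15 ± 0.19 (adjusted p = 0.000231), though a fall in Rh41 has little room above background. With the KDM4C siRNA IRS2 was at 6.87 and 6.80 against 6.72 and 6.56, a difference of 0.19 (95% interval -0.15 to 0.54). By sample name the Rh30 QC6352 difference was 0.25 (adjusted p = 0.441) and that of the siRNA 0.46 (adjusted p = 0.393).

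IRS1, the other main adaptor, was called in Rh41. There it was at 8.84, 8.36 and 8.59 with DMSO and at 8.98, 9.05 and 9.04 with QC6352. Every treated array was above every control, a rise of 0.43 ± 0.11 (n = 3 and 3, adjusted p = 0.0111). Without DMSO replicate 2, the lowest Rh41 array, the difference was 0.31 and its adjusted p was 0.0832.

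In Rh30 IRS1 was at 7.34, 7.41 and 7.61 with DMSO and at 7.07, 7.22 and 7.21 with QC6352. The treated arrays lay under the controls, but the difference of -0.29 ± 0.11 (adjusted p = 0.0539) was not called. All 6 arrays carry conflicting labels, and by sample name the difference was 0.23 ± 0.16, of the other sign. It passed by title under 3 alternatives: after quantile normalization (adjusted p = 0.0454), without the lowest 40% of genes (0.0284) and without DMSO replicate 1 (0.0446). The difference of the responses, Rh41 minus Rh30, was 0.72 ± 0.16 (adjusted p = 0.00332). The hairpin difference was 0.04 (95% interval -0.25 to 0.33), and the siRNA difference was -0.03 (-0.32 to 0.26) by title and -0.12 by sample name.

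**Figure D2:**
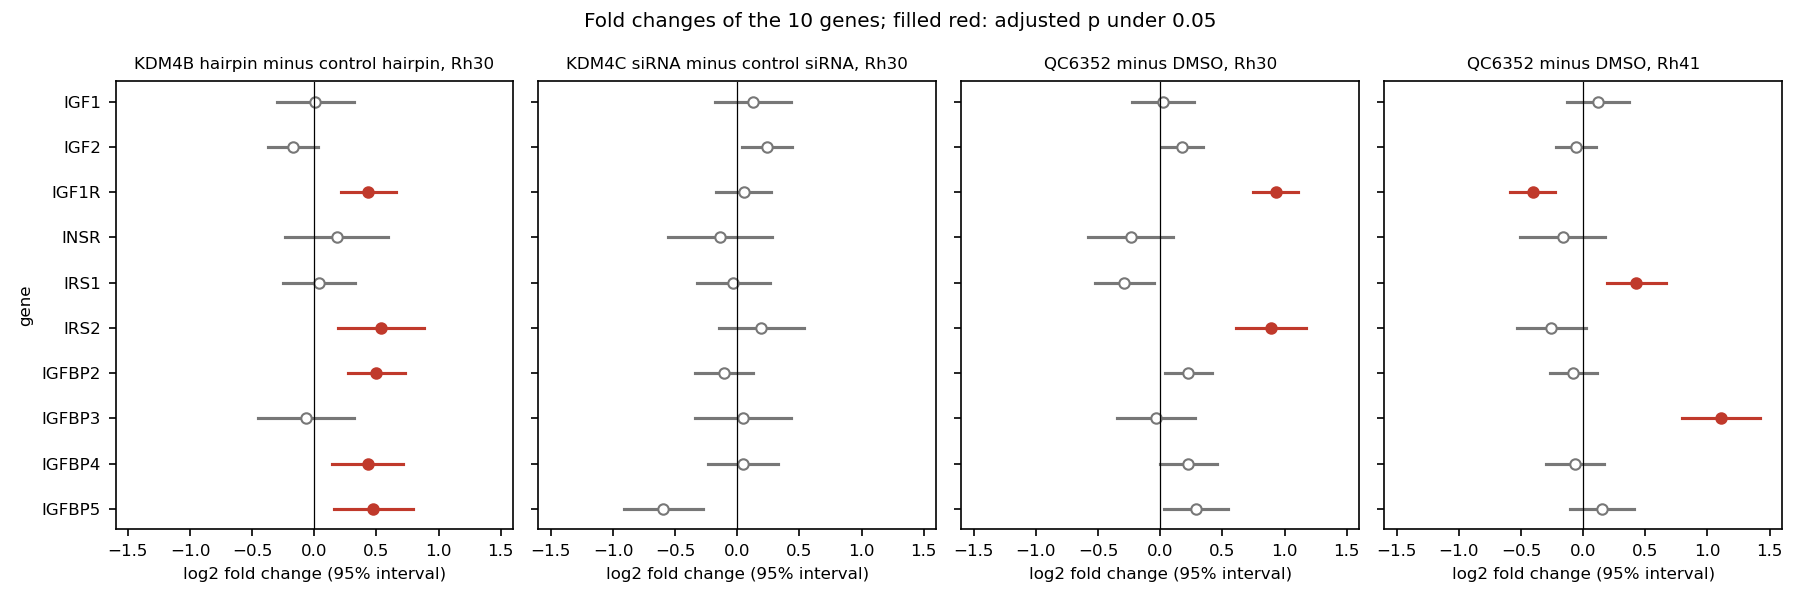
Log2 fold change of the 10 genes, treated minus control, in the 4 treatment comparisons, with 95% intervals as horizontal lines. Filled red points are past an adjusted p of 0.05 (limma). IGF1R stands at 0.93 in Rh30 with QC6352 and at -0.41 in Rh41, and IGFBP3 at 1.11 in Rh41.

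Of the binding proteins, QC6352 raised IGFBP3 in Rh41, and the KDM4B hairpin raised the other 3 in Rh30. IGFBP3, the main carrier of IGFs in serum, was at 8.80, 8.95 and 8.73 in Rh41 with DMSO and at 9.98, 9.93 and 9.90 with QC6352. The groups were far apart, and the rise of 1.11 ± 0.15 or 2.16-fold (n = 3 and 3, adjusted p = 2.94e-05) was the largest change of the 10 genes in the 4 treatment comparisons. In Rh30 it was at 5.30, 4.89 and 4.57 with DMSO and 4.94, 4.63 and 5.09 with QC6352, fully overlapping. The Rh30 difference was -0.03 (95% interval -0.35 to 0.28), and the responses differed by 1.14 ± 0.21 (adjusted p = 0.000708). Its Rh30 difference by sample name was 0.44 ± 0.21 (adjusted p = 0.256). The Rh30 values were all at or under the highest background probe set. The siRNA difference was 0.04 by title and 0.11 by sample name.

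IGFBP2, a binding protein of fetal tissues, rose with the KDM4B hairpin. It was at 7.80 and 7.72 in the hairpin arrays and at 7.29 and 7.24 in the controls. The hairpin arrays were higher without overlap, by 0.50 ± 0.11 (n = 2 and 2, adjusted p = 0.00517). In Rh30 with QC6352 it was at 7.75, 7.88 and 7.67 against 7.52, 7.52 and 7.59, also without overlap, but the difference of 0.22 ± 0.09 (adjusted p = 0.0597) was not called. By sample name that difference was 0.38 ± 0.17 (adjusted p = 0.23), and in Rh41 it was -0.08 (95% interval -0.27 to 0.11). The siRNA difference was -0.11 by title and 0.11 by sample name, neither called.

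IGFBP4, which inhibits IGF action until it is cleaved, was at 6.57 and 6.57 with the hairpin and at 6.10 and 6.18 with its control. The rise was 0.43 ± 0.13 (n = 2 and 2, adjusted p = 0.0463). IGFBP5, a binding protein made by differentiating muscle cells, was at 6.20 and 6.54 with the hairpin and at 5.95 and 5.85 with its control. It rose by 0.47 ± 0.15 (n = 2 and 2, adjusted p = 0.0486), but was at 0.30 and not called without KDM4B hairpin replicate 2 (adjusted p = 0.396). IGFBP4 lost its call without any one of the 4 arrays (adjusted p = 0.101 to 0.191). The groups did not overlap for either gene. With 2 arrays each this is a weak mark: the hairpin groups also did not overlap for IGF2 and INSR, which were not called (adjusted p = 0.298 and 0.679, limma). The share of all genes without overlap was not counted. With QC6352 in Rh30 the differences were 0.23 for IGFBP4 and 0.29 for IGFBP5 (adjusted p = 0.122 and 0.0779) by title and 0.21 and 0.28 by sample name, and neither gene passed in Rh41. The siRNA difference of IGFBP4 was 0.04 by title and 0.03 by sample name.

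The largest difference with the KDM4C siRNA was that of IGFBP5. It was at 5.13 and 4.86 against 5.56 and 5.62 in the controls. Both treated arrays were below both controls, and the difference of -0.60 ± 0.15 (n = 2 and 2) had an adjusted p of 0.0776, so it was not called. By sample name the same comparison gave 0.02 ± 0.31.

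The hairpin results rest on 2 arrays per group with the spread shared over all 20. Fitted on the 4 hairpin arrays alone, none of the 5 genes passed in limma, although all 5 had an unadjusted p under 0.05, and 4.67% of all genes were called. Values of IRS2, IGFBP2, IGFBP4 and IGFBP5 in the 4 arrays lay at or under the highest background probe set, and those of IGF1R above it. Without the 10 arrays whose labels conflict, IGF1R and IGFBP2 passed (adjusted p = 0.016 and 0.0064) and IRS2, IGFBP4 and IGFBP5 did not (0.0514, 0.0531 and 0.0702). In that fit 14.3% of all genes were called. The Rh41 calls of IGF1R, IRS1 and IGFBP3 all held there (adjusted p = 0.00478, 0.0205 and 9.91e-06), where 23.5% of all genes were called. The Rh30 QC6352 and siRNA comparisons could not be fitted without those arrays.

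With the groups by sample name, no member was called in limma for the hairpin, the siRNA, QC6352 in Rh30 or the difference between lines, and 4, 2, 3 and 2 members had an unadjusted p under 0.05. The shares of all genes called were then 4.1%, 0%, 0.503% and 4.31%. In Rh41 IGFBP3 alone was called, where 8.69% of all genes were. The fold changes of the hairpin and of Rh41 do not change with the labels of other arrays, and their standard errors, which are shared, became larger.

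The 4 genes whose QC6352 responses differed between the lines are shown with the bases before their start sites, since IGF1R and IRS2 moved together in Rh30, and IRS1 and IGFBP3 in Rh41. The sequences are the 250 bases upstream of the start, 5′ to 3′ on the gene's strand, from RefSeq on GRCh38.p14, where 9 of the 10 genes had an entry and IGF2 had none. They lie at chr15:98648289-98648538 on the plus strand for IGF1R, and on the minus strand at chr13:109786584-109786833 for IRS2, chr2:226799821-226800070 for IRS1 and chr7:45921273-45921522 for IGFBP3. Capitals mark GC boxes, the letters GGGCGG on either strand, which zinc-finger factors such as SP1 can bind.
IGF1R: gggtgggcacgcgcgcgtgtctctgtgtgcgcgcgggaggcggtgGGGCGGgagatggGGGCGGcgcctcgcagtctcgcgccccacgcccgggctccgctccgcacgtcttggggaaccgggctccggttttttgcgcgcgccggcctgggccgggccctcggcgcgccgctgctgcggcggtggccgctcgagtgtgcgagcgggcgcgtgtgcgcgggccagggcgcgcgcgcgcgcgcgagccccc
IRS2: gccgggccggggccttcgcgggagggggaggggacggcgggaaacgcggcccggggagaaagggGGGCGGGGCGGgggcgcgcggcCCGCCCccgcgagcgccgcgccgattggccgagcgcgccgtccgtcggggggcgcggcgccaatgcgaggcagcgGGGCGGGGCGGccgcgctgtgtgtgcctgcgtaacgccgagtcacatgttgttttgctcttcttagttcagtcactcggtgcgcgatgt
IRS1: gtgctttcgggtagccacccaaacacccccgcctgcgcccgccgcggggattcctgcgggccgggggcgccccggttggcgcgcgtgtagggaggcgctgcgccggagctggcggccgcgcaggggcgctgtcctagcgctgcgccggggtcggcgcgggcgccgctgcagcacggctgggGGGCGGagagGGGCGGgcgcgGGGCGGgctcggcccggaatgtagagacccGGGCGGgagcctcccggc
IGFBP3: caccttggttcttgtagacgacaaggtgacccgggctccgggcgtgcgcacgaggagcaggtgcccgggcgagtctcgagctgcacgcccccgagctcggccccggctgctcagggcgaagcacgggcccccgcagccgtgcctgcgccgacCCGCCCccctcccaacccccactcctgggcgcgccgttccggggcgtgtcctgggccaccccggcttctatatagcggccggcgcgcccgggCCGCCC

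All 4 windows were rich in G and C: 81.2% in IGF1R, 80.8% in IRS1, 76.4% in IRS2 and 76% in IGFBP3, where the median of 35114 windows of the same length was 58%. They held 2 GC boxes in IGF1R, 5 in IRS2 with pairs that overlap, 4 in IRS1 and 2 in IGFBP3, a motif found in 42.6% of all windows. Neither trait was particular to these genes: INSR had 78.4% G and C and 4 GC boxes, and IGFBP4 71.6% and 1. The other members with an entry were lower. IGFBP5 had 61.2% and no GC box, the 3 IGFBP2 windows 56.4% to 69.2% and at most 1, and the 2 IGF1 windows 39.6% and 44% and none. The IRS2 window also held 2 CCAAT boxes (letters CCAAT, in 32% of windows) and 1 E-box (CANNTG, in 61.8%), and the IGFBP3 window 1 E-box. Neither the TATA letters TATAAA (10.7% of windows) nor the FOXO letters GTAAACA (2.98%) occurred in the 4 windows. All motifs were searched on both strands. These matches describe the letters of the windows and are not binding sites measured here.

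Without the drug the largest differences between the lines were in IGFBP3, IRS2 and IGFBP2. Between Rh41 and Rh30 with DMSO, 7 of 10 genes were called, 6 higher in Rh41 and 1 lower, a share near that of all genes, 57.6% (40.7% higher and 16.8% lower). IGFBP3 was 3.91 ± 0.15 higher in Rh41, or 15.01-fold as deposited and 12.57-fold after each array was centred on its median. Its Rh30 values were near background, so the fold is uncertain. IGFBP2 was 2.45 ± 0.09 higher in Rh41, or 5.47-fold (adjusted p = 8.4e-14 for IGFBP3 and 4.38e-14 for IGFBP2, n = 3 and 3, limma). IGFBP2 was at 9.98, 10.05 and 9.96 in Rh41, and no Rh30 array exceeded 7.88. IRS1 was 1.14 ± 0.11 higher in Rh41 (adjusted p = 7.26e-08), with every Rh41 array above every Rh30 array. IRS2 was at least 6.61-fold higher in Rh30, its Rh41 values being near background, with a difference of -2.73 ± 0.13 for Rh41 minus Rh30 (adjusted p = 2.92e-12). The 2 adaptors were thus each higher in a different line.

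IGFBP5 was 0.59 ± 0.12 higher in Rh41, IGF2 0.34 ± 0.08 and IGF1R 0.32 ± 0.09 (adjusted p = 0.000452, 0.000925 and 0.00376). The median of all genes was itself 0.19 higher in Rh41, and the array medians 0.26. After each array was centred on its median, IGF2 differed by 0.09 (adjusted p = 0.356) and IGF1R by 0.06 (0.572), and neither was called. INSR was then lower in Rh41, with a difference of -0.46 (adjusted p = 0.0238), while the differences of IRS1, IRS2, IGFBP2, IGFBP3 and IGFBP5 were called under both scalings. Of all genes called, 70.7% were higher in Rh41 as deposited, 49.1% after quantile normalization and 45.9% after centring. By sample name the same comparison called 8 of the 10 genes, against 61.8% of all genes, with IGF2 at 1.06 ± 0.12 and IGFBP4 at 0.64 ± 0.13.

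**Figure D3:**
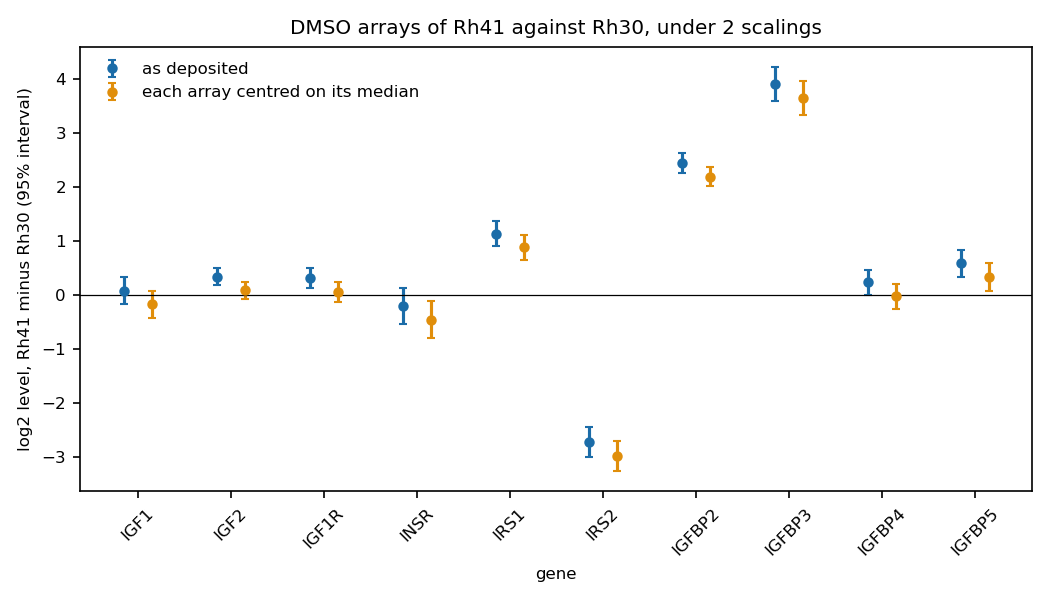
Log2 difference of each gene between Rh41 and Rh30 with DMSO, with 95% intervals, as deposited (blue) and after each array was centred on its median (orange). IGFBP3 stands at 3.91 and 3.65 and IRS2 at -2.73 and -2.98, while IGF2 moves from 0.34 to 0.09.

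The rest of the pathway was described by lists of its genes, whose counts are read against the shares of all genes called: 11.6% for the hairpin, 36.3% for QC6352 in Rh30 and 19.7% in Rh41. The lists were chosen with earlier results of these data known, so their counts are descriptions. Rh30 values follow the titles. By sample name no gene of the 7 lists was called for QC6352 in Rh30 in limma, with 1, 1, 0, 2, 2, 6 and 1 genes at an unadjusted p under 0.05 in the order of the lists below. Of the 20 list genes that the naming rule gave for that comparison, 10 then had the other sign, STC1, STC2, IGF2BP1, IGF2BP3, IGF2R, CD81, CTSD, MAPKAP1, GSK3B and RPS6KB1. Outside the members, 7 further ligands, receptors and binding proteins were measured. IGFBP6, which binds IGF2 in preference to IGF1, was the one that rose with the hairpin (0.87, adjusted p = 0.00594) and with QC6352 in Rh30 (1.82, adjusted p = 3.41e-08) and Rh41 (0.49, adjusted p = 0.0368). The response of IGFBP6 was smaller in Rh41 by -1.33 ± 0.23 (adjusted p = 0.000309). IGF2R, which clears IGF2 from the cell surface, fell by 0.23 in Rh30 with QC6352 (adjusted p = 0.0445). The siRNA moved none of these 7 past the threshold in limma, and 1 had an unadjusted p under 0.05.

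Among 6 proteases of the binding proteins and their inhibitors, the hairpin raised 2, QC6352 raised 2 and lowered 1 in Rh30, and it raised 1 and lowered 2 in Rh41. That is 2, 3 and 3 of 6 genes, against 11.6%, 36.3% and 19.7% of all genes. STC1, a stanniocalcin that inhibits the protease PAPP-A, rose by 2.67 in Rh30 and 1.67 in Rh41 (adjusted p = 8.49e-11 and 2.2e-07). STC2, its relative, rose by 0.71 with the hairpin and 1.14 with QC6352 in Rh30. ADAM12, a metalloprotease that can cleave IGFBP3 and IGFBP5, rose by 0.88 with the hairpin and fell by 1.89 with QC6352 in Rh30 and by 1.07 in Rh41. HTRA1, a serine protease of binding proteins, fell by 0.67 in Rh41. With the siRNA none of the 6 passed, also at an unadjusted p under 0.05.

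The 3 IGF2 mRNA binding proteins hold and stabilise the IGF2 transcript among others. All 3 were called with QC6352 in Rh30, and 2 of the 3 with the hairpin. With QC6352 in Rh30 all 3 were lower: IGF2BP2 fell by 1.04, IGF2BP3 fell by 1.03 and IGF2BP1 fell by 0.61 (adjusted p = 9.7e-09, 0.000118 and 3.77e-05). The hairpin raised IGF2BP1 by 0.51 and IGF2BP2 by 0.52 (adjusted p = 0.00606 and 0.00219). IGF2BP3 was not called there, with a difference of -0.26 (adjusted p = 0.549, limma). In Rh41 none passed in limma with QC6352 and 1 had an unadjusted p under 0.05, and with the siRNA none did at either threshold. The response of IGF2BP3 differed between the lines by 1.26 ± 0.25, and that of IGF2BP2 by 1.06 ± 0.12 (adjusted p = 0.00125 and 3.56e-06).

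Of 11 other adaptors and regulators at the receptors, QC6352 raised 3 and lowered 1 in Rh30 and raised 3 in Rh41, and the hairpin raised 1. The shares of 4 and 1 of 11 in Rh30 were near and under those of all genes (36.3% and 11.6%), and 3 of 11 stood against 19.7% in Rh41. SOCS1, which blocks signalling from the receptors and targets IRS proteins for breakdown, rose by 0.51 with the hairpin, 1.02 with QC6352 in Rh30 and 0.31 in Rh41 (adjusted p = 0.00502, 4.16e-08 and 0.02). SOCS3, a relative, rose by 0.54 and 0.36 with QC6352 in Rh30 and Rh41. GAB1, a docking protein, rose by 0.42 in Rh30, and PTPN11, the phosphatase SHP2, rose by 0.36 in Rh41. With the siRNA none of the 11 passed in limma, and 1 had an unadjusted p under 0.05.

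The PI3K, AKT and mTOR core had 25 measured genes. With QC6352, 6 rose and 9 fell in Rh30, and 3 rose and 8 fell in Rh41, with median differences of -0.18 and -0.10 against 0.05 and 0.02 for all genes. These 15 and 11 of 25 genes stood against 36.3% and 19.7% of all genes. MAPKAP1, a subunit of mTORC2, fell by 1.64 in Rh30 and by 0.62 in Rh41, and GSK3B, a kinase that AKT inhibits, fell by 1.49 in Rh30. RPS6KB1, the S6 kinase downstream of mTORC1, rose by 0.96 in Rh30 and 0.57 in Rh41. PHLPP1, a phosphatase of AKT, rose by 0.81 in Rh41. The hairpin lowered 3 of the 25 genes and raised none, a share near the 11.6% of all genes called in either direction (6.31% lower). RHEB, the activator of mTORC1, fell by 0.99, PIK3R1, the regulatory subunit of PI3K, fell by 0.71, and MTOR fell by 0.55 (adjusted p = 0.000416, 0.00505 and 0.0131, limma). With the siRNA EIF4EBP1, an mTORC1 substrate, fell by 0.71 (adjusted p = 0.0421), and by sample name its difference was 0.01.

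FOXO factors are held out of the nucleus by AKT, and 21 of these factors and their target genes were measured. In Rh30 with QC6352, 11 rose and 2 fell, with a median of 0.51 against 0.05 for all genes. In Rh41, 7 rose and 3 fell, with a median of 0.19 against 0.02. These 13 and 10 of 21 genes stood against 36.3% and 19.7% of all genes. BCL2L11, which encodes the death-promoting protein BIM, rose by 1.69 in Rh30 and 1.13 in Rh41 (adjusted p = 5.18e-11 and 7.36e-08). TRIB1 rose by 1.10 and FBXO32, a muscle ubiquitin ligase, by 1.06 in Rh30. BCL6 rose by 0.82 in Rh30 and 1.23 in Rh41, and FOXO1, whose probe set may also read the fusion transcript, fell by 0.94 in Rh30 and by 1.14 in Rh41. The hairpin raised 5 of the 21, among them CITED2 by 0.86, TRIB1 by 0.75 and GADD45A by 0.60, and lowered 1. With the siRNA none passed in limma, and 5 had an unadjusted p under 0.05.

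Of 12 measured genes around IGF2 in the imprinted region 11p15, QC6352 raised 3 and lowered 1 in Rh30 and lowered 1 in Rh41. These 4 and 1 of 12 genes were shares under those of all genes (36.3% and 19.7%). The hairpin and the siRNA moved none past the threshold in limma, with 2 and 1 at an unadjusted p under 0.05. CD81, a tetraspanin, rose by 0.64 and CTSD, the protease cathepsin D, by 0.45 in Rh30. MRPL23, a mitochondrial ribosomal protein, fell by 0.56 in Rh30 and by 0.84 in Rh41. IGF2-AS, a non-coding gene antisense to IGF2 that was singled out after its values were seen, had a mean of 8.51 in Rh41 with DMSO and 7.84 with QC6352, a difference of -0.67 ± 0.10 (adjusted p = 5.84e-05). In the same arrays IGF2 was not called.

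**Figure D4:**
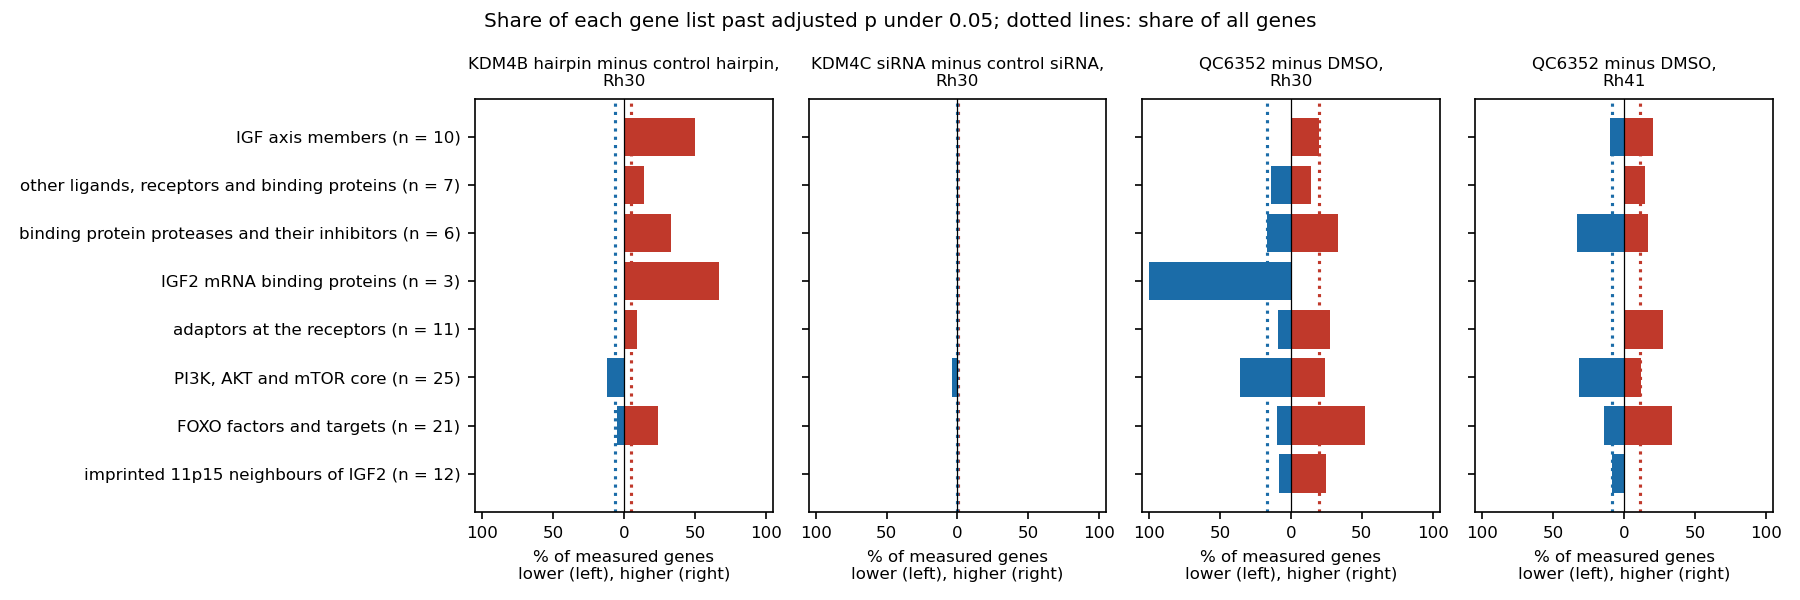
Percent of the measured genes of each list that were called higher (right, red) or lower (left, blue) in the 4 treatment comparisons. Dotted lines give the share of all genes called in each direction. All 3 IGF2 mRNA binding proteins were lower in Rh30 with QC6352, and 5 of 10 IGF axis genes were higher with the KDM4B hairpin.

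The genes whose pattern over the 20 arrays was most like that of IGF2, after each line was centred on its mean and among 6210 genes, were POM121C (Pearson r = 0.958), KMT2D (0.949), BRPF1 (0.945), CNOT3 (0.944) and IRF2BPL (0.943). Over the 16 arrays not titled siRNA these were 0.858, 0.852, 0.911, 0.909 and 0.902. Within the 6 Rh41 arrays they were 0.602, 0.275, 0.525, -0.160 and -0.121, and within the 14 Rh30 arrays they were 0.951 to 0.970. For IGFBP5, the member with the widest spread of group means in Rh30 (1.47), they were TYW2 (0.940), PPP1R12C (0.931), CDHR5 (0.927), LPCAT4 (0.924) and TMEM190 (0.918). Over the 16 arrays these were 0.849, 0.874, 0.773, 0.805 and 0.749, and within Rh41 they were 0.949, 0.576, 0.692, 0.709 and -0.513. The points share the arrays' own scaling, and these values are descriptions.

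Among the members themselves, measured the same way, IGF1R went closest with IRS2 (r = 0.898), and IGFBP2 with IGFBP5 (0.910) and IGFBP4 (0.875). IGFBP2, IGFBP4 and IGFBP5 were each lowest in the 4 arrays titled siRNA, and the r values of the members were not taken without those arrays. IGF1R and IRS1 had r = -0.164. The first pair are the genes raised by the hairpin and by QC6352 in Rh30, and the last pair moved in opposite directions in Rh41.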

How the data were processed

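Total RNA was extracted with a spin column kit and labelled from 125 ng for Clariom S arrays, per the labels' protocols. The authors deposited log2 signals per probe set, made with GCOS per the submitters' processing notes. How the signals were background-corrected, summarised and normalised, and on which build, is not given in the sources used here. No further normalisation was applied. The table's 24351 probe sets included 17709 with 1 gene symbol and 6642 with none. The probe set with the highest mean stood for each gene, which gave 17687 genes.

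Groups follow the sample titles. One model of 8 group means was fitted over all 20 arrays in limma 3.58.1 (R 4.3.3; lmFit, then eBayes with no trend), leaving 12 residual degrees of freedom. Benjamini-Hochberg adjustment ran over all 17687 genes, with 0.05 as the threshold. The p-values measure the spread of arrays labelled as biological replicates, and the number of arrays limits precision. Numbers were not shown to pair arrays. Intervals cover 95%. The members and lists were chosen with earlier results of these data known. Of each pathway list, up to 3 called genes are named per comparison, those of largest absolute fold change. Genes like a member are the 5 with the highest Pearson r among those whose line-centred values had a standard deviation of at least 0.3. The fit was tested on simulated data.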

Additional observations from a re-analysis of the deposited data

Results flagged for a closer look

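The QC6352 response of 4 genes differed between the lines, tested as the difference of the responses, Rh41 minus Rh30, in limma over all 12 arrays of the 4 groups within the fit of 20. It was -1.33 ± 0.12 log2 for IGF1R (SE, adjusted p = 3.31e-07), which rose in 3 of 3 Rh30 arrays and fell in 3 of 3 Rh41 arrays relative to every control array of the line. It was -1.15 ± 0.19 for IRS2 (adjusted p = 0.000231), 1.14 ± 0.21 for IGFBP3 (0.000708) and 0.72 ± 0.16 for IRS1 (0.00332). All 6 Rh30 arrays of this test carry conflicting labels. By sample name the differences were -0.40, -0.51, 0.67 and 0.19, and none was called in limma (adjusted p = 0.338, 0.266, 0.216 and 0.691). Groups of 2 or 3 arrays are too small for a search for single outlying arrays.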

How the results depend on the processing

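Where fitted, the 4 differences between lines held under every alternative but the groups by sample name, as did IGF1R and IRS2 in Rh30 and IGF1R and IGFBP3 in Rh41 with QC6352, except that by sample name IGFBP3 alone held. For the KDM4B hairpin, members called went from 5 to 0 in a fit of the arrays compared alone, 3 with the replicate block, 0 by sample name, 2 without the arrays whose labels conflict, and 1 to 3 when any one array was left out. IGF1R and IRS2 were lost without control replicate 1 or KDM4B replicate 1, IRS2 also without KDM4B replicate 2, IGFBP2 without KDM4B replicate 1, IGFBP5 in 3 of the 4 omissions and IGFBP4 in all 4. All-gene calls ranged from 1039 to 1557 over the 4 omissions, against 2047. With eBayes trend and robust IGF2 was also called for the hairpin (adjusted p = 0.0475), siRNA (0.0273), QC6352 in Rh30 (0.00353) and the line difference (0.0115). For the siRNA, 1 member (IGF2) was called with it, and 0 to 1 with an array left out (IGFBP5 without KDM4C siRNA replicate 1), while all-gene calls ranged from 8 to 1789 against 81. For QC6352 in Rh30, 5 were called without the lowest 40% of genes, which removed IGFBP3, IGFBP5 and INSR, 2 to 5 with an array left out, and 0 by sample name, where IGF1R reversed to a difference of -0.011. In Rh41, 1 was called by sample name and 2 to 3 with an array left out. Between lines, 0 were called by sample name and 4 in each omission, and with DMSO 7 to 8. By sample name all-gene calls were 725, 0, 89, 1537 and 762 for the hairpin, siRNA, Rh30 and Rh41 drug and line-difference comparisons, against 2047, 81, 6427, 3479 and 3534. The causes were not tested. Of 862 alternative values, 33 changed sign while uncalled in both fits. Same-numbered arrays had residual correlations of 0.09 (hairpin), -0.21 (siRNA), 0.06 to 0.26 (Rh30 drug) and -0.19 to -0.06 (Rh41 drug), so the replicate block was an alternative only, and it changed no other member's call. Signal over background limits IRS2 in Rh41.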
